A study of Mus musculus with 6 samples.

Results

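Some genes of the mouse annotation are neither protein-coding nor a settled class of non-coding RNA. GENCODE release M21 gives the type TEC to transcribed stretches whose coding status still awaits experimental proof, and the type sense_intronic to transcripts that lie in an intron of a coding gene on its own strand. Of 55471 gene IDs in the expression tables, 3541 carried one of these types, and 400 of them had a summed expected count of at least 30 over the libraries. These 400 members, 361 TEC and 39 sense_intronic, are described here. The members with the fewest counts were Gm29055, Gm42793 and Gm38377 at 30 summed counts, and the nearest genes left out were Gm35558 at 29.96 and Gm37238 and Gm43560 at 29.0. A further 2007 genes of these types had no count in any library.

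The cells were OT-I CD8+ T cells, which carry a T cell receptor for an ovalbumin peptide and a Cas9 knock-in. They were transduced with a lentiviral vector that held either a guide against Elovl1, which makes saturated very long-chain fatty acids, or a non-targeting guide (sgElovl1 and sgNT, 3 libraries each). All recipients bore orthotopic KPC_OVA pancreatic tumours and received anti-PD-1 from the day after transfer, and the CD90.1+ cells were sorted from the primary tumour 7 days after transfer. For 2 of the sgElovl1 libraries (replicates 1 and 2), RNA from 2 tumours was pooled into 1 sample. The labels name no clone, so each library is a population that can hold unedited cells. Total expected counts ran from 21980273 to 26165380, and counts fell on 18688, 17939 and 17313 genes in sgElovl1 replicates 1 to 3 and on 16179, 15618 and 17040 genes in the sgNT ones. The 7 CD8 T cell markers were abundant, at 9640, 9660 and 10400 CPM in the sgElovl1 libraries and a higher 11400, 11100 and 11200 CPM in the sgNT libraries (1 called higher and 2 lower), and none of the 4 fibroblast markers had a count in every library. Elovl1 stood at 81.5, 76.6 and 95.4 CPM in sgElovl1 replicates 1 to 3 and at 283, 280 and 255 CPM in sgNT replicates 1 to 3 (log2 fold change -1.69 by edgeR's quasi-likelihood test, SE 0.12, adjusted p = 8.71e-05).

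Introns are transcribed with the rest of a gene and are cut out of the precursor RNA in the nucleus, where most of their RNA is broken down. Mature messenger RNA ends in a poly(A) tail, added a short distance after a signal whose most common form is AATAAA, and libraries primed on poly(A) can also start inside an RNA where the bases themselves are rich in A. RNA counted on an intronic gene can therefore come from a transcript of its own or from the precursor of the host gene, and gene counts do not separate the sources.

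By position, 260 members lay wholly inside a protein-coding gene on the same strand (222 TEC and 38 sense_intronic), and the smallest such gene is called the host. Another 68 overlapped a coding gene only on the opposite strand, 7 began within 5000 bases after the end of a coding gene, 2 overlapped a coding gene in part, and 63 had none of these positions. Of the members, 378 had a single annotated exon, with a median span of 2435 bases. The inside members sat in 213 hosts, whose median span was 80261 bases against 23081 for all tested coding genes. Within the longest coding transcript of the host, 244 of the 260 lay in 1 intron, of median length 24044 bases, and 83 of those lay in intron 1 and 14 in the last intron. Position along the host was the number of host bases before a member, as a share of those before and after it. By that share, 98, 55, 67 and 40 members fell in the 4 successive equal stretches from host start to host end. An exon of the host was overlapped by 15 inside members, and 231 touched no annotated exon of any other gene.

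The annotated ends of these genes differed from those of coding genes in how often they held AATAAA. The last 50 bases of the longest transcript, read on its own strand only, held AATAAA in 23.8% of the 400 members (95% Wilson interval 19.8 to 28.2%), in 21.7% of all 3541 TEC and sense_intronic genes and in 56.5% of 21897 protein-coding genes. The share was 17.7% in the inside members (13.5 to 22.8%), 29.4% in those on the opposite strand and 39.7% in the members with no coding gene around them. At least 12 A among the last 20 bases were present in 11.8% of members, 12.7% of inside members and 8.66% of coding genes. The last 100 bases of 7 members follow, from the GENCODE M21 transcripts on GRCm38. They are shown because these transcripts carry the results below: 5 intronic ones in T cell or abundant hosts, 1 intergenic and 1 across from a nuclear RNA. Capitals mark AATAAA where it lies in the last 50 bases, and a match is a run of letters, not a measured cleavage site.

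C230085N15Rik (Satb1, chr17:51757295-51757394, minus strand): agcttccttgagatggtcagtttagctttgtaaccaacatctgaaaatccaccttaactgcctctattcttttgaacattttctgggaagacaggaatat
Gm43481 (Gtf2i, chr5:134267065-134267164, minus strand): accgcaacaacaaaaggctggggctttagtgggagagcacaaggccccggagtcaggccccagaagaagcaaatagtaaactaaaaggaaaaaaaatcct
A130071D04Rik (Ptprc, chr1:138161820-138161919, minus strand): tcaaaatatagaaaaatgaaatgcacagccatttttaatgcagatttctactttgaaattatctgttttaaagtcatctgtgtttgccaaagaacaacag
Gm48720 (Cd3e, chr9:45008142-45008241, minus strand): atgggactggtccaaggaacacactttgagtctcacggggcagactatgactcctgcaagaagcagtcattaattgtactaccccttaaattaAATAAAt
Gm43065 (Ptpn22, chr3:103866698-103866797, plus strand): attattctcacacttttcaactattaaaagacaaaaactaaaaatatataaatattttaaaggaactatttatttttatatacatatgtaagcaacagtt
5330406M23Rik (no coding gene, chr6:31108827-31108926, minus strand): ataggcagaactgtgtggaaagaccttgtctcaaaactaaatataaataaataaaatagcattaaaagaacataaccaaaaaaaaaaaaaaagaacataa
Gm37376 (across from Malat1, chr19:5802294-5802393, plus strand): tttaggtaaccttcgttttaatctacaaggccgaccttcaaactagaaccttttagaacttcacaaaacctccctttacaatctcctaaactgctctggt

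Of these 7, Gm48720 held AATAAA in its last 50 bases, starting 7 bases before its end, and 5330406M23Rik held it further from the end. The last 20 bases held 17 A in 5330406M23Rik, 12 in Gm43481 and 4 in Gm37376. Members inside a gene with AATAAA at the end and those without it are set side by side with their changes further on.

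RNA of the inside members was more abundant in sgElovl1 cells, with no overlap between the groups, while the summed level of their hosts barely differed. Summed over the 260 inside members, the level was 529, 432 and 389 CPM (counts scaled to a library total of 1000000, with no further scaling) in sgElovl1 replicates 1 to 3. It was 171, 81.6 and 86.0 CPM in sgNT replicates 1 to 3. On average sgElovl1 stood at 450 ± 71.8 and sgNT at 113 ± 50.4 CPM (SD, n = 3 per group), a ratio of 3.99. The sgNT replicate 1 value was far above those of the other sgNT libraries, and still below every sgElovl1 library. The 213 hosts summed to 24400, 25500 and 26500 CPM in the sgElovl1 libraries and to 24000, 24000 and 23600 CPM in the sgNT libraries, a ratio of 1.07. On the length-scaled TPM measure, the inside members' summed level was 2.12, 1.79 and 1.58% of their hosts' level in the sgElovl1 libraries and 0.832, 0.43 and 0.477% in the sgNT libraries, in replicate order. In bulk RNA, fewer cells of a type and less RNA per cell cannot be told apart, and the p-values below measure the spread between these libraries.

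**Figure D1:**
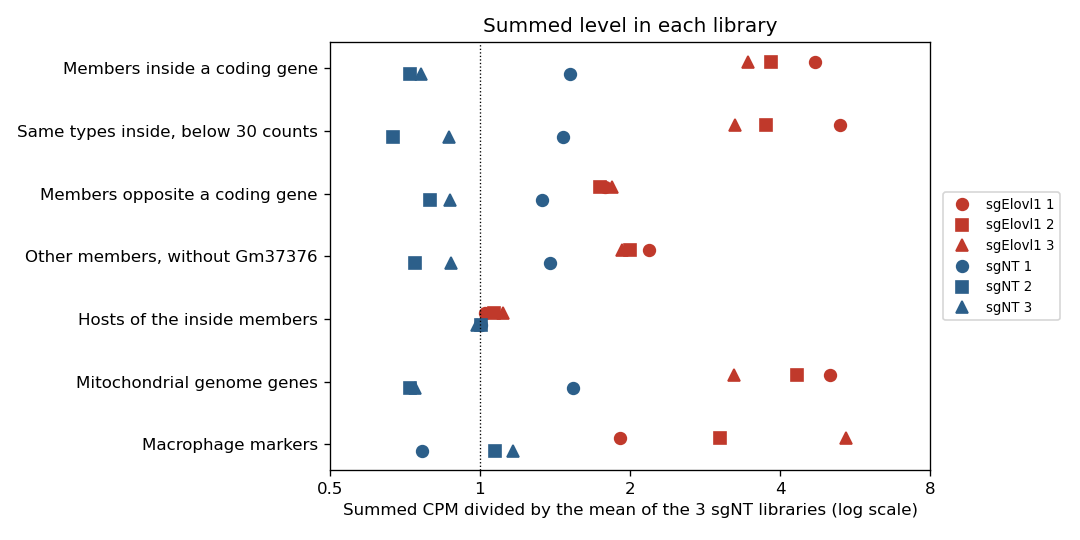
Each point is the summed CPM of a set of genes in 1 library, divided by the mean of the 3 sgNT libraries (horizontal log axis); red is sgElovl1, blue is sgNT, and the marker shape gives the replicate. The inside members lie well to the right in all 3 sgElovl1 libraries, the hosts stay close to 1 in every library, and mitochondrial RNA and macrophage markers, which were also higher in sgElovl1, are drawn for comparison.

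Members outside a same-strand coding gene were also higher, by less. The 68 opposite-strand members summed to 85.0, 83.3 and 87.9 CPM in sgElovl1 replicates 1 to 3 and to 63.7, 38.0 and 41.7 CPM in sgNT replicates 1 to 3. Their ratio of means was 1.79. The 63 members without a coding gene around them were dominated by Gm37376. Without it, the other 62 summed to 79.9, 73.1 and 70.4 CPM against 50.6, 27.1 and 32.0 CPM, a ratio of 2.04. In both classes the groups did not overlap, and in both the ratio was below that of the inside members, a difference for which no test was made.

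Across all 400 members, the mean CPM was higher in sgElovl1 for 359 and lower for 41. Every sgElovl1 library was above every sgNT library for 226 members and below for 4. Among all annotated genes with at least 30 summed counts, 18.7% were higher without overlap and 16.4% were lower, against 56.5% and 1.0% of the members. Inside a host the higher share was 67.7% (176 of 260), and for the 140 other members it was 35.7%. The 4 members that were lower without overlap were Gm37123 (inside Pik3ca), AC115752.1 (inside Minpp1, over one of its exons), Gm45705 (after F2rl3) and Gm45769 (part overlap with Smim10l1), named after their values were seen.

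With edgeR fitted to every gene that had a count and no filter, all 400 members were tested. Of these, 108 were called higher and 0 lower at an adjusted p under 0.05, where 5.81% of all genes in that fit were called higher. That share was taken over 22312 genes with a count, of which 13871 reached the summed count required of the members. The members and all genes in that fit were therefore not held to the same count minimum, and a share at the members' minimum is not given here. With edgeR's usual filter on low counts, which left 12546 genes, 253 members were tested. Of those, 83 were called higher and 0 lower, and 8.64% of all tested genes were called higher and 5.13% lower. At an unadjusted p under 0.05, 148 members were higher and 0 lower, where 2187 of all 12546 genes were higher and 1847 lower. DESeq2 and limma-voom also called 0 members lower, and the shares of all genes in those fits are not given here. On leaving out sgElovl1 1, sgElovl1 2 or sgNT 2 the number called higher came to 28, 26 or 34, of 274, 285 or 327 members tested. The shares of all genes called in those fits are not given here, and calls of hosts also became fewer, as given below. The filter is not neutral here, because 70 of the 253 passed it through the 3 sgElovl1 libraries alone and 0 through the 3 sgNT libraries alone. Of the 41 inside members with at least 10 counts in every sgNT library, a choice made after seeing the data, 21 were called higher and 0 lower, 37 had a positive log2 fold change, and the median was 1.54.

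By position, 75 of the 169 inside members tested were called higher, with a median log2 fold change of 1.95. For TEC genes inside hosts the count was 64 of 141 (median 2.01), and for sense_intronic genes it was 11 of 28 (median 1.47). On the opposite strand 3 of 38 were called higher (median 0.56). Among members with no coding gene around them 5 of 41 were called (median 0.82), and 0 of 4 after the end of a gene. Of the opposite-strand members, 31 tested ones overlapped an annotated exon of another gene (1 called, median 0.41) and 7 did not (2 called, median 1.48). The study's methods name a strand-specific library service after SMARTer pre-amplification, but the strand setting of the counting is not given in the sources used here, so reads from an opposite-strand member may include reads from the gene across from it. Inside members with AATAAA in their last 50 bases had 11 of 29 called (median 1.68), and those without it had 64 of 140 called (median 2.01). Those with at least 12 A in the last 20 bases had 15 of 23 called (median 2.41), against 60 of 146 for the rest (median 1.82). The tested members split here include the 70 that passed the filter through sgElovl1 alone, and their number in each class was not counted. Among the 41 inside members with at least 10 counts in every sgNT library, 21 were called higher (median 1.54).

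**Figure D2:**
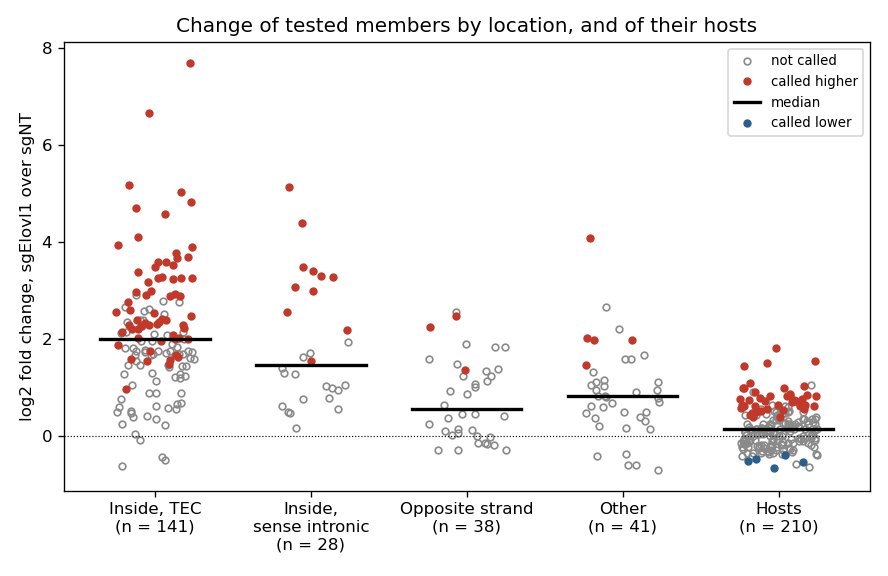
Each point is the log2 fold change of a tested gene, sgElovl1 over sgNT, by position class (horizontal axis) with the hosts at the right; filled red points were called higher, filled blue points lower, open points were not called, and black bars are medians. Inside members centre near 2, the opposite-strand and other members between 0.56 and 0.82, and the hosts near 0.15. The tested members include those that passed the filter through sgElovl1 alone.

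The hosts moved far less than the transcripts inside them. Of 210 hosts tested, 42 were called higher and 5 lower, with a median log2 fold change of 0.15. Among all 11202 coding genes tested, 8.23% were called higher and 5.53% lower, with a median of -0.02. Hosts called higher came to 23, 17 or 18 on leaving out sgElovl1 1, sgElovl1 2 or sgNT 2. Hosts called lower came to 0 on leaving out sgElovl1 1, sgElovl1 2, sgNT 1 or sgNT 2, and to 16 on leaving out sgElovl1 3. Of the 75 inside members that were called higher, the host was higher for 27, not called for 47 and lower for 1. Hosts called higher had a median span of 136507 bases, against 68765 for the other hosts, and over all coding genes the median was 52118 bases for those called higher and 23081 for all tested.

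To set each member against its own host, the log2 CPM of the host was subtracted from that of the member in each library and the difference was compared between the groups with limma, over all 216 tested genes of any type that lie inside a tested coding gene on its strand. Of the 168 member pairs, 100 members gained on their host, 0 fell behind it, and 161 had a positive difference, with a median of 1.94 on the log2 scale. These pairs include members that passed the filter through sgElovl1 alone, and among the 41 with at least 10 counts in every sgNT library 26 gained on their host, with a median of 1.43. Over all 216 pairs 48.6% were above the host and 0.926% below. The 48 nested genes of other types had 5 above (10.4%) and 2 below, with a median of 0.05. Of these, 26 were processed pseudogenes, with 3 above, 1 below and a median of -0.08. Another 15 were antisense, lincRNA and related non-coding genes, with 2 above, 0 below, 12 positive and a median of 0.76. At an unadjusted p under 0.05, 119 members were above the host and 0 below, against 129 and 4 of all 216 pairs. The pattern held whether or not the host was itself called: 74 of 124 members gained on a host that was not called (median 1.97), and 25 of 42 gained on a host that was higher (median 1.65). Leaving out sgElovl1 replicate 1 brought the count to 51, leaving out sgNT replicate 1 brought it to 157, and with replicate 3 of both groups left out it was 16 of 195.

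**Figure D3:**
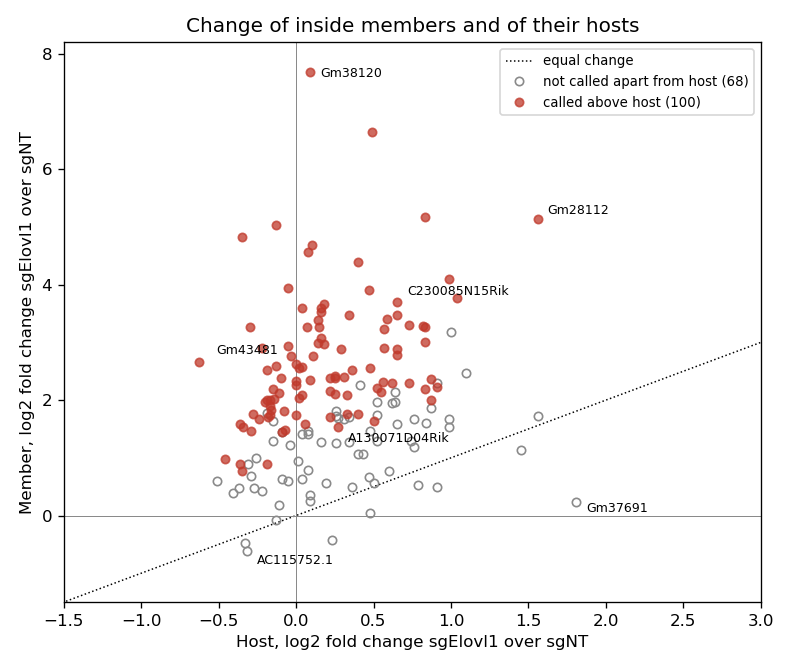
Each point is 1 of 168 member and host pairs, with the host's log2 fold change (sgElovl1 over sgNT) on the horizontal axis and the member's on the vertical axis; filled points are the 100 members called above their host by limma, open points the other 68, and the dotted line marks equal change. Most points lie above the line, across hosts that rose, fell or did not pass the test. The pairs include members that passed the filter through sgElovl1 alone.

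Across the 168 pairs, the log2 fold changes of member and host had a Spearman correlation of 0.24 and a Pearson r of 0.19, given as a description over genes that share the same libraries. The difference between member and host had a Spearman correlation of 0.05 with the log10 span of the host, -0.03 with the position along it, 0.10 with the log2 CPM of the host and 0.01 with that of the member. Neither the length of the host nor the place of the member in it ordered the differences.

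The inside members with the highest levels lay in Satb1, Ptprc, Gtf2i, 2010111I01Rik, Cd3e and Itpkb. A130071D04Rik, in intron 2 of Ptprc (the phosphatase CD45 of all leukocytes), was at 24.3, 18.0 and 15.2 CPM in sgElovl1 replicates 1 to 3 and at 10.7, 4.68 and 4.47 CPM in sgNT replicates 1 to 3 (these and all later gene levels are TMM-normalised CPM). The groups did not overlap, and it was called higher (log2 fold change 1.54, SE 0.37, edgeR adjusted p = 0.0369), with an adjusted p of up to 0.138 when 1 library was left out (call lost on leaving out sgElovl1 1, sgElovl1 2 or sgNT 2 or 3). Ptprc itself had 1640, 1680 and 1650 CPM against 1360, 1400 and 1360 CPM (0.27, SE 0.12, edgeR adjusted p = 0.138). Gm48720, in intron 2 of Cd3e (a chain of the T cell receptor complex), was at 14.6, 15.1 and 15.9 CPM against 8.31, 2.11 and 3.02 CPM. Its sgNT replicate 1 was well above the other two sgNT libraries, and it was not called (1.76, SE 0.50, edgeR adjusted p = 0.0657). It was called with the replicate number as a block (edgeR adjusted p = 0.0202), without sgNT replicate 1 (edgeR adjusted p = 0.00202), by DESeq2 (adjusted p = 8.74e-05), by limma-voom (adjusted p = 0.00958) and by limma on log2(TPM + 1) (adjusted p = 0.0304). Cd3e was higher at 983, 929 and 831 CPM against 725, 665 and 691 CPM (0.40, SE 0.12, edgeR adjusted p = 0.0493), a call that the block ended (edgeR adjusted p = 0.0614) and that 1 of 6 left-out libraries kept. Against their hosts, A130071D04Rik and Gm48720 gained 1.36 and 1.61 on the log2 scale (95% intervals 0.45 to 2.26 and 0.62 to 2.61, limma adjusted p = 0.0179 and 0.0140).

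Gm43481, in intron 12 of Gtf2i (a general transcription factor), was at 23.5, 20.2 and 13.0 CPM in sgElovl1 and at 6.82, 1.68 and 0.786 CPM in sgNT. Its groups did not overlap, but the sgNT libraries differed among themselves, and it was not called (2.62, SE 0.87, edgeR adjusted p = 0.122). It was called with the replicate block (edgeR adjusted p = 0.0105), without sgNT replicate 1 (edgeR adjusted p = 0.00563), by DESeq2 (adjusted p = 0.0226), by limma-voom (adjusted p = 0.0341) and by limma on log2(TPM + 1) (adjusted p = 0.0148). Gtf2i had 241, 237 and 172 CPM against 227, 281 and 143 CPM, with a log2 fold change of 0.00, and the difference from the host was larger than its spread (3.09, SE 0.56, limma adjusted p = 0.00193). Gm47586, in intron 12 of 2010111I01Rik, had 18.5, 14.9 and 12.9 CPM against 4.90, 3.27 and 2.69 CPM. It rose by 2.09 (SE 0.25, edgeR adjusted p = 0.00134), a call that no single left-out library ended, beside a host at 0.04 (SE 0.14). Gm43065 is a sense_intronic gene in intron 1 of Ptpn22 (a phosphatase that restrains T cell receptor signalling), named after its values were seen. It had 9.59, 8.74 and 7.68 CPM against 3.45, 1.33 and 0.911 CPM (2.19, SE 0.44, edgeR adjusted p = 0.0157, lost on leaving out sgElovl1 1, sgElovl1 2 or sgNT 2), and its host had a log2 fold change of -0.15 (edgeR adjusted p = 0.41).

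**Figure D4:**
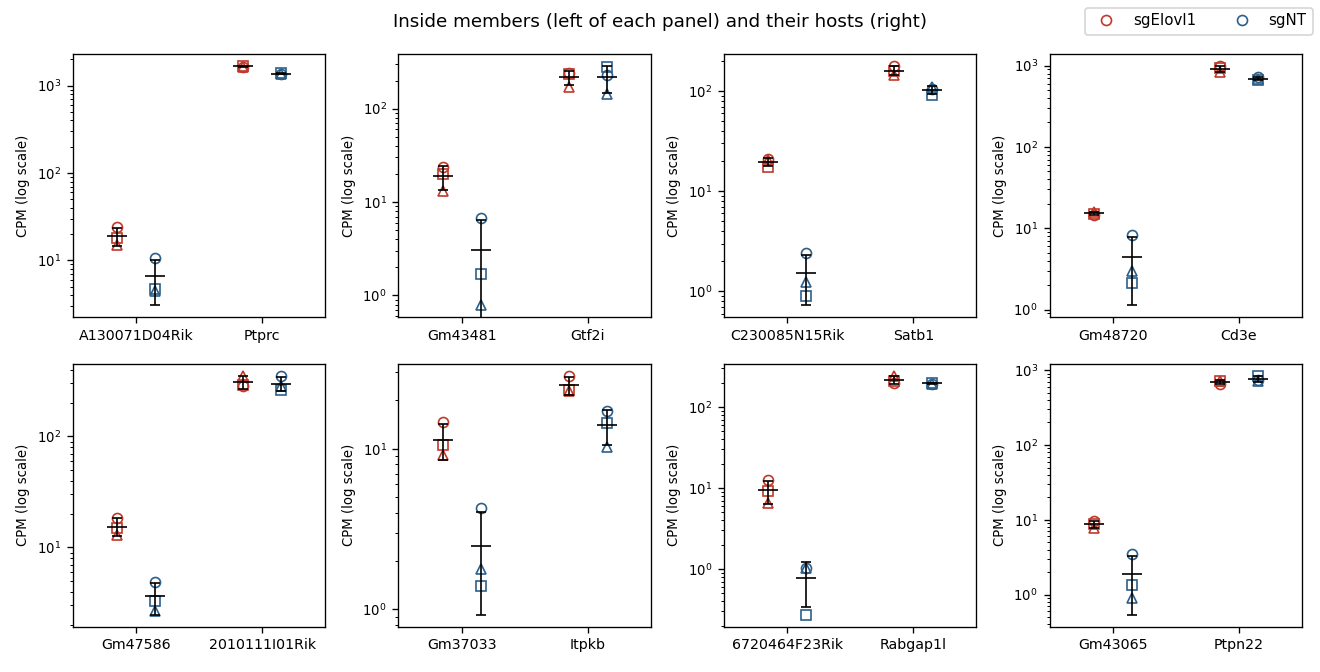
Each panel gives, on a log axis of TMM-normalised CPM, an inside member at the left and its host at the right, with sgElovl1 libraries in red and sgNT libraries in blue; marker shapes are the replicates, and black bars are the mean and SD of 3 libraries, running off the axis where the SD is wide. In all 8 panels the member's sgElovl1 libraries lie above its sgNT libraries, from C230085N15Rik with its wide gap to Gm48720 with 1 high sgNT library; levels of member and host are not compared, since they differ in length.

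Satb1, which organises chromatin in T cells, held 4 members, and 3 of them were called higher. C230085N15Rik, in intron 9 of 10, was at 20.9, 17.4 and 20.6 CPM in sgElovl1 replicates 1 to 3 and at 2.39, 0.897 and 1.24 CPM in the sgNT ones. It averaged 19.6 ± 1.95 CPM in sgElovl1 and 1.51 ± 0.779 CPM in sgNT (SD, n = 3 per group), and its call (3.70, SE 0.31, edgeR adjusted p = 0.000449) survived the loss of any single library. Gm37248 and 5830444F18Rik, both in intron 5, rose by 3.48 and 2.89, also in each such fit, and E430014B02Rik, in intron 9, had 2.78 (SE 0.98, edgeR adjusted p = 0.112). The host was higher by a smaller amount, at 178, 157 and 146 CPM against 104, 91.8 and 110 CPM (0.65, SE 0.12, edgeR adjusted p = 0.00778, lost without sgElovl1 replicate 2 or sgNT replicate 2). All 4 members gained on it, by 2.39 to 3.35.

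Rabgap1l, which encodes a protein that acts on Rab GTPases, held 5 members, of which the 3 that were tested were all called higher. Which members were tested was decided by the filter, which a member could pass through sgElovl1 alone. 6720464F23Rik, in intron 13, had 12.5, 9.14 and 6.49 CPM against 1.02, 0.273 and 1.03 CPM (3.59, SE 0.46, edgeR adjusted p = 0.00268). Gm37215, in the same intron, and Gm37529, in intron 19, had log2 fold changes of 3.52 and 3.07 (edgeR adjusted p = 0.0259 and 0.011, both lost without sgElovl1 replicate 1 or 2, and Gm37215 also without sgNT replicate 2 or 3). The host had 199, 209 and 245 CPM against 193, 200 and 193 CPM, a log2 fold change of 0.16 (edgeR adjusted p = 0.373). Rabgap1l therefore joined large differences in 3 annotated transcripts of its introns 13 and 19 with no detectable one in its own gene count.

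In Dock10 and Itpkb both the members and the host were higher. All 3 members in intron 1 of Dock10, a guanine nucleotide exchange factor, were higher: Gm37645 by 2.36, A630081D01Rik by 2.01 and Gm38062 by 1.87. Dock10 rose by 0.87 (SE 0.11, edgeR adjusted p = 0.00161). Of these, Gm38062 was not called above its host (limma adjusted p = 0.0723) and lost its own call without any 1 of 5 libraries. Itpkb, a kinase of inositol trisphosphate that acts in T cell development, held 3 members in intron 2. Gm37033 was at 14.6, 10.5 and 9.15 CPM against 4.26, 1.40 and 1.78 CPM (2.20, SE 0.41, edgeR adjusted p = 0.0132, lost on leaving out sgElovl1 1, sgElovl1 2 or sgNT 2), and Gm36933 and Gm37390 rose by 3.26 and 5.17. Gm37390 had 89 counts against 2, a ratio of CPM of 46.4 (95% exact counting interval 12.5 to 389). The host rose by 0.83 (edgeR adjusted p = 0.0175, lost without the same 3 libraries as Gm37033). Gm36933 kept its call in 1 of 6 fits with a library left out, and Gm37390 kept it in all 6.

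The other hosts with at least 3 members gave counts from none to 2. Their tested members can include ones that passed the filter through sgElovl1 alone, and the number in each host was not counted. In Picalm, which acts in clathrin-mediated uptake, 2 of 2 tested members were higher (2.27 and 2.33) beside a host at 0.00. With 1 library left out, Gm45220 kept its call in 2 of 6 fits and Gm45223 in all 6. In Dennd1b, an activator of Rab35, 1 of 3 was called, Gm37718, at 2.77, 2.55 and 2.56 CPM against 0.0852, 0.312 and 0.0414 CPM (4.10, SE 0.57, edgeR adjusted p = 0.0023). Dennd1b itself rose by 0.99 (SE 0.14, edgeR adjusted p = 0.00272). In Foxn3 1 of 2 tested members was called, in Ncoa2 1 of 3 and in 2010111I01Rik 1 of 2, with host log2 fold changes of 0.62, 0.09 and 0.04. The called member in Foxn3, Gm47138, kept its call in 1 of 6 fits with a library left out, and Foxn3 itself kept its own in 3. The called members in Ncoa2 and 2010111I01Rik kept theirs in all 6. In Rap1a, a small GTPase that acts in T cell adhesion, 0 of 2 tested members were called (0.79 and 1.41), and the 4 members in Dis3l2 were all too low for the test, although the mean was higher in sgElovl1 for each. The Foxn3 transcript that was too low for the test, Gm47139, had a lower mean in sgElovl1, at 0.385, 0.219 and 0.229 CPM against 0.511, 0.39 and 0.207 CPM.

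**Figure D5:**
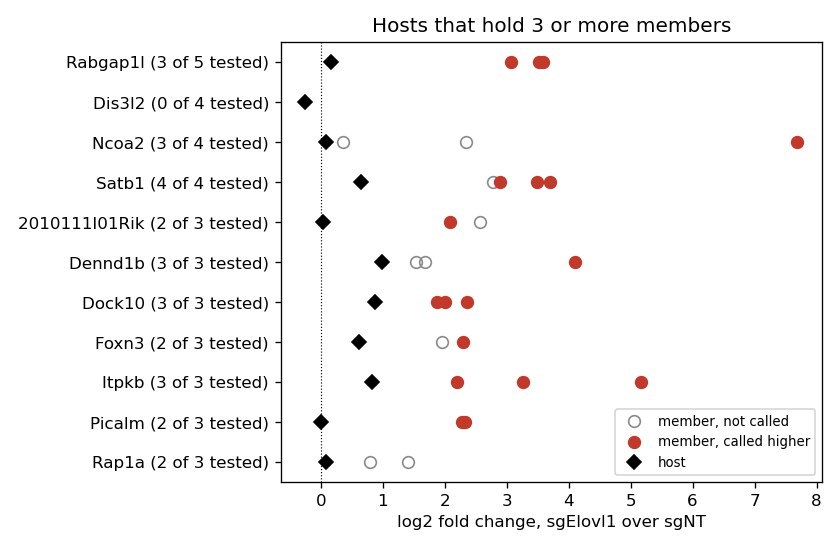
Each row is a host that holds 3 or more members, with the log2 fold change (sgElovl1 over sgNT) of its tested members as circles, filled where called higher, and that of the host as a black diamond. In all 10 hosts with a tested member the circles lie to the right of the diamond, from Rap1a, where none was called, to Rabgap1l, Dock10 and Itpkb, where all 3 were. The tested members include some that passed the filter through sgElovl1 alone, such as Gm38120 in Ncoa2, which had no sgNT count.

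Beside those in Satb1, Rabgap1l and Dennd1b, the largest called changes among members of at least 1 CPM included 5 more inside hosts. 9430034N14Rik, in Tor1aip1 (a protein of the inner nuclear membrane), had 1.77, 1.89 and 2.61 CPM against 0, 0 and 0.207 CPM (4.83, SE 0.84, edgeR adjusted p = 0.00644, lost without sgElovl1 replicate 1 or 2). Its few sgNT counts leave that size open, and it came to 8.70 without sgNT replicate 3. Its host was at -0.35 (SE 0.11, edgeR adjusted p = 0.0605, called on leaving out sgElovl1 3 with adjusted p = 0.0478). Gm37940, in the last intron of Snd1, had 4.77, 3.68 and 1.87 CPM against 0.298, 0.117 and 0.248 CPM (3.94, SE 0.50, edgeR adjusted p = 0.00161) beside a host at -0.05. A130012E19Rik, in intron 2 of Zfc3h1 (which acts in nuclear RNA decay), rose by 3.77 beside a host that rose by 1.04. Gm43696 in Lrig2 rose by 3.48, and Gm42856, in intron 1 of Wasl (a regulator of actin), rose by 3.27 with 11.7, 7.65 and 5.08 CPM against 1.32, 0.546 and 0.662 CPM, beside hosts at 0.34 and 0.15 that were not called. The calls of Gm37940, A130012E19Rik, Gm43696 and Gm42856 survived the loss of any single library.

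Gm38120, in intron 1 of Ncoa2 (a coactivator of nuclear receptors), had no count in any sgNT library and stood at 1.35, 1.20 and 0.549 CPM in the sgElovl1 libraries. Against a floor of 3 counts per library it was at least 8.40-fold higher in sgElovl1, and the call survived the loss of any single library (edgeR adjusted p = 0.00399). Gm38120 met the count minimum and the filter through sgElovl1 alone, so neither the call nor its survival is independent of that selection. Gm45266, in Rab11fip1, also had no sgNT count, was at least 4.07-fold higher and was selected in the same way. Gm37039, in intron 1 of Icos (a costimulatory receptor of activated T cells), had 0.732, 0.546 and 0.137 CPM against 0 in all sgNT libraries, at least 3.84-fold higher, and was too low for the test. In Ikzf2, which encodes Helios, Gm28112 rose by 5.14 (edgeR adjusted p = 0.00163) at 2.54, 1.02 and 1.28 CPM against 0.0426, 0.039 and 0.0414 CPM. With 122 counts against 3, the ratio of CPM was 42.4 (95% exact counting interval 14.2 to 209). Its neighbour Gm29112 in the same intron had 1.72 (edgeR adjusted p = 0.127). These last 4 were named after their values were seen.

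Relative to the host, the 6 highest fitted gains were those of 9430034N14Rik, Gm38120, Gm48766 in Fars2, Gm37558 in Kpna4, Gm38118 in Hsd11b1 and Gm38235 in Phlpp1, all called by limma. Each had no count in at least 1 sgNT library, so the fitted sizes and their order depend on the prior count of 0.5 and are not given. Gm48766 had 45 counts against 1 and Gm37558 had 90 against 3, ratios of CPM of 46.9 and 31.3 (95% exact counting intervals 8.0 to 1890 and 10.4 to 155). Of these, Gm38118 was not called by itself (2.66, SE 0.97, edgeR adjusted p = 0.0884), and was called without sgNT replicate 1 (edgeR adjusted p = 0.0218) and by limma-voom (adjusted p = 0.0217). Its host, the enzyme that regenerates active glucocorticoid, had 145, 170 and 274 CPM against 285, 299 and 324 CPM (-0.63, SE 0.22, edgeR adjusted p = 0.0869). Hsd11b1 was lower in all sgElovl1 libraries, and it was called with the block (edgeR adjusted p = 0.027) and on leaving out sgElovl1 3 (edgeR adjusted p = 0.00244). Gm48766 lost its call without sgElovl1 replicate 2 or sgNT replicate 2, and Gm38235 without sgElovl1 replicate 1 or 2 or sgNT replicate 2.

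No pair was called below its host. The smallest p belonged to Gm37691 in Lamb3, where the host rose and the intronic transcript did not follow. Lamb3, a laminin chain, had 59.3, 58.3 and 64.8 CPM against 23.4, 12.1 and 16.6 CPM (1.81, SE 0.21, edgeR adjusted p = 0.00178). Gm37691 had 0.578, 0.437 and 0.366 CPM against 0.128, 0.585 and 0.455 CPM (0.24, SE 0.62, edgeR adjusted p = 0.824), a difference from the host of -1.42 (95% interval -3.11 to 0.28, limma adjusted p = 0.139). Gm37123 in Pik3ca, the catalytic subunit of a PI3 kinase, was lower in every sgElovl1 library, at 0.809, 0.947 and 0.96 CPM against 1.11, 1.36 and 1.20 CPM (-0.43, SE 0.38, edgeR adjusted p = 0.463). AC115752.1 overlaps an exon of Minpp1 and, like it, had a negative log2 fold change (-0.61 and -0.32, neither called).

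Outside same-strand hosts, 8 of 84 tested members were called higher, a share of 9.52% that is near the 8.64% of all tested genes. 5330406M23Rik, on chromosome 6 without a coding gene around it, had 5.74, 5.65 and 3.66 CPM against 1.36, 1.09 and 1.32 CPM (1.99, SE 0.29, edgeR adjusted p = 0.00299), and of the 8 it alone stayed called in all 6 fits with a library left out. 9630010A21Rik on chromosome 1 had the largest change, with 5.27, 4.63 and 7.32 CPM against 0.596, 0 and 0.414 CPM (4.09, SE 0.81, edgeR adjusted p = 0.0236, lost on leaving out sgElovl1 1, sgElovl1 2 or sgNT 1). Gm37728, Gm38244 and Gm49167 had 2.02, 1.98 and 1.46. On the opposite strand, Gm37520 in Prkcq (a kinase of T cell receptor signalling) had 2.48, Gm45251 in Rnf170 had 2.24 and Gm49338 in Bace1 had 1.36. These 6 and 5330406M23Rik were named after their values were seen.

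The most abundant member was not called. Gm37376 lies on the plus strand of chromosome 19 from 5801941 to 5802393, within the span of Malat1, an abundant nuclear long non-coding RNA on the minus strand, and its whole 453 bases are the complement of a stretch of a Malat1 transcript. It had 587, 680 and 1190 CPM in sgElovl1 and 671, 217 and 298 CPM in sgNT, so the groups overlapped (1.05, SE 0.56, edgeR adjusted p = 0.271). Malat1 had 1370, 1690 and 2800 CPM against 1450, 451 and 705 CPM (1.17, SE 0.55, edgeR adjusted p = 0.22), with the same order of libraries. Whether the counting told reads of these apart is not given in the sources used here. Gm37648, across from Soat1 (which esterifies cholesterol), followed at 14.0, 13.1 and 26.4 CPM against 13.4, 4.87 and 6.04 CPM (1.14, SE 0.48, edgeR adjusted p = 0.169). Gm37376 and Gm37648 were called without sgNT replicate 1 (edgeR adjusted p = 0.0432 and 0.03).

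Other RNA moved with these transcripts, and every sgElovl1 library had more genes with a count than every sgNT library. The 37 genes of the mitochondrial genome summed to 16200, 13900 and 10400 CPM in sgElovl1 replicates 1 to 3 and to 4930, 2330 and 2380 CPM in sgNT replicates 1 to 3. Within each group this was the same order of libraries as for the inside members, and 11 of 14 tested genes were called higher. The 8 macrophage markers summed to 100, 159 and 284 CPM against 40.1, 56.2 and 61.1 CPM, the reverse order within sgElovl1, and 2 of 8 were called higher. The 6 tumour epithelial markers were high in the third library of both groups (322 and 979 CPM, against 34.0 to 49.1 CPM in the others). The 6 nuclear retained RNAs summed to 1590, 1930 and 2900 CPM against 1500, 483 and 713 CPM. Within sgElovl1 that was also the reverse order, and within sgNT it was the order of the inside members. Of the 4 tested, 2 were called higher. Kcnq1ot1 was among them (2.50, SE 0.27, edgeR adjusted p = 0.00131) and Neat1 was not (0.89, SE 0.31, edgeR adjusted p = 0.108). The part of these in the differences of the members was not tested.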

How the data were processed

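RNA from 6 libraries was sequenced after SMARTer pre-amplification and a strand-specific library service. Per the submitters' processing notes, STAR 2.7.7a, RSEM 1.3.1, DESeq2 1.36.0 and mm10 were used, and the annotation release and the strand setting of the counting are not given in the sources used here. The deposited tables hold expected counts, the authors' RSEM estimates of reads per gene, and deposited TPM, which the authors scaled by length. Members and lists were chosen with earlier results of these data known. Types and positions came from GENCODE M21 (GRCm38), which held 55230 of 55471 gene IDs.

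Rounded expected counts were tested with edgeR 4.0.16 (R 4.3.3): filterByExpr, minimum count 10, TMM, robust quasi-likelihood fits, two-sided tests and Benjamini-Hochberg adjustment over all genes tested. Genes were called at an adjusted p under 0.05. Member and host differences used limma 3.58.1 on log2 CPM (prior count 0.5). DESeq2 1.42.0, limma-voom, other scaling, other filters, a block and left-out libraries were alternatives. The steps were tested on simulated data. Same-numbered libraries deviated together (correlations 0.196, 0.2 and 0.386), and differently numbered ones had correlations from -0.287 to 0.159. The highest of those, sgElovl1 1 with sgNT 2, was close to the values for replicates 1 and 2, so only replicate 3 stood apart. The numbers may pair the samples, although the labels name no shared litter or day. All main fits were without the block. Exact intervals of count ratios cover counting error only, Wilson intervals cover shares of genes, and limma intervals the spread between libraries.

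Genes named by rule were Elovl1, the 8 most abundant members, the 10 largest called changes of at least 1 CPM without overlap, the 6 pairs furthest above and, as no pair was called below, the 4 of smallest p below the host, hosts with 3 or more members, and hosts of named members.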

Additional observations from a re-analysis of the deposited data

Results flagged for a closer look

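TEC and sense_intronic genes below the count minimum, which enter no comparison of the report, carried the same kind of signal. Their 3141 genes summed to 111, 81.1 and 70.5 CPM in sgElovl1 replicates 1 to 3 and to 35.2, 19.7 and 22.3 CPM in the sgNT ones. On average this was 87.4 against 25.7 CPM, and the level was above that of the control libraries in every sgElovl1 library. The 1584 of them that lie inside a same-strand coding gene had means of 57.5 and 14.0 CPM, a ratio of 4.1. The 1557 that do not had means of 29.8 and 11.7 CPM, a ratio of 2.55. Over inside genes of these types at any count, the ratio was 4.0 for the 1059 whose host was tested. It was 4.31 for the 785 whose host was not tested (6.93 against 1.61 CPM). A count was present for 542 to 785 of the 3141 genes in the sgElovl1 libraries and for 228 to 343 in the sgNT libraries. None of these sums was tested.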

How the results depend on the processing

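Every setting left the inside members on the same side: 94.4 to 97.6% of those with a value had a positive log2 fold change. Members called higher numbered 83, against 97 with DESeq2, 111 with limma-voom, 84 with RLE scaling, 108 without the filter and 105 with replicate 3 of both groups left out, where 2 were lower (1 of them with no coding gene around it). With 1 library left out, the counts ran from 26 to 97 for all members, 25 to 84 inside, 0 to 6 on the opposite strand and 1 to 7 for the others, and were lowest without sgElovl1 replicate 1 (28) or 2 (26) or sgNT replicate 2 (34). Only 25 of the 83 kept the call whichever library was left out. On the opposite strand 3 were called, against 5 with DESeq2, 7 with limma-voom, 6 without the filter, 10 without replicate 3 of both groups and 7 with limma on log2(TPM + 1). For the others 5 were called, against 8 with limma-voom. Hosts higher ran from 17 to 45 and hosts lower from 0 to 16 with 1 library left out, and 11 hosts were lower with DESeq2, 26 without replicate 3 of both groups and 0 on log2(TPM + 1).

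Members above their host numbered 100, against 51 to 157 with 1 library left out, 16 without replicate 3 of both groups and 45 on log2(TPM + 1). That scale compresses low values, and its median for inside members was 0.45. Members below numbered 0, against 0 to 1 with 1 library left out, 1 at a summed count of at least 30 and 10 on log2(TPM + 1). At least 15 A in place of 12 in the last 20 bases, a choice added after seeing the data, was met by 3.08% of inside members. With the replicate number as a block, 94 members were called higher and 104 were above their host, and among the named genes the block changed no other call than those given in the report. The bases after the ends could not be read, as no genome sequence was used here. The low counts of most members limit single calls, and 147 of the 400 were too low for the test.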
